A study of Homo sapiens with 12 samples.

Results

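MYC and MXD1 encode opposing transcription factors, and their RNA was followed in the established neuroblastoma line SK-N-BE(2), in which MYCN is amplified. Both were found by symbol in the probe annotation, 2 genes of 14884 measured, each with 1 transcript cluster (a set of probes against a single transcribed locus), cluster 17072669 for MYC and cluster 16881138 for MXD1. The cells had been cultured with serum and treated for 6 h with vehicle, with 1 µM JQ1, with 10 nM panobinostat or with both compounds at those doses, and 3 arrays of total RNA were made per group, 12 in all. JQ1 keeps BET proteins off acetylated chromatin by filling their bromodomains, and panobinostat blocks histone deacetylases, the enzymes that remove this acetylation. The vehicle is not named in the sources used here, all 4 groups share the same cell line, and the labels do not say whether replicates were separate cultures. The p-values therefore measure no more than the spread among these arrays, and that spread may be technical.

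MYC and MXD1 share a partner. MYC pairs with MAX to activate genes that carry E-box sequences and drive growth, whereas MXD1 pairs with the same MAX, binds the same sequences and brings in the SIN3 corepressor with its histone deacetylases. MXD1 is known for appearing as cells leave the cycle and differentiate, when MYC usually falls. In neuroblastoma with amplified MYCN, MYCN takes the place of MYC and MYC itself is typically low. MYCN and MYCL were not analysed here.

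The promoter of MXD1 is shown because its RNA gave the largest change of the network. It is the plus strand of RefSeq's GRCh38.p14, chr2:69914859-69915108, which are the 250 bases before the annotated start, and capitals mark GC boxes (GGGCGG) and CCAAT boxes (CCAAT), both searched on both strands.

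MXD1: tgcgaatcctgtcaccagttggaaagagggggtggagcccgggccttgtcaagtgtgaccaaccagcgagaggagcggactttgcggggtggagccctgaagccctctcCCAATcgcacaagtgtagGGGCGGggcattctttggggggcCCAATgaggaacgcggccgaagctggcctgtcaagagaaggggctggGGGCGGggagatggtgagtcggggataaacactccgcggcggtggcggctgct

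This window held 2 GC boxes, which began 123 and 53 bases before the start, and 2 CCAAT boxes, which began 141 and 100 bases before it. No copy of one motif overlapped a copy of the other. Among 35116 RefSeq promoters cut to the same length, 42.6% held a GC box and 32.0% a CCAAT box. The E-box CACGTG that MYC and MXD1 bind with MAX was not in the window and was in 6.34% of promoters. Neither the AP-1 letters TGANTCA (6.57% of promoters) nor TATAAA (10.7%) were found. G and C made up 64.4% of the window, against a median of 58.0%.

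The cells carried the RNA of their labelled type. Of 10 measured markers of adrenergic neuroblasts, TH, DBH and CHGA among them, 9 had a mean signal at or above the 80th percentile of all genes, as did 3 of 8 mesenchymal markers and 0 of 3 epithelial markers, and the 1 measured blood marker, CD14, lay below the median. Over all genes, arrays of a group correlated at 0.991 to 0.995, and arrays of different groups at 0.962 to 0.989. The deposited values are taken as log2 signal intensities, an assumption on which all fold changes rest, and they carry no detection call. Signal over background is thus not known, and precision is limited by how many arrays there are. Signals of different clusters depend on their probes and give no order of RNA abundance between genes.

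MXD1 rose with each compound and rose further with both. In such bulk RNA, a change in the share of cells of a type and a change in RNA per cell cannot be told apart. In the vehicle arrays its log2 signal was 8.48, 8.03 and 8.19 (8.23 ± 0.23, SD, n = 3). The JQ1 arrays read 9.35, 9.24 and 9.35 (9.31 ± 0.06). Every JQ1 array thus lay above every vehicle array. The panobinostat arrays read 9.30, 9.48 and 9.51 (9.43 ± 0.11), and the combination arrays 9.98, 10.13 and 10.15 (10.08 ± 0.09). All 3 combination arrays lay above all arrays of the other groups, while the JQ1 and panobinostat arrays overlapped.

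**Figure D1:**
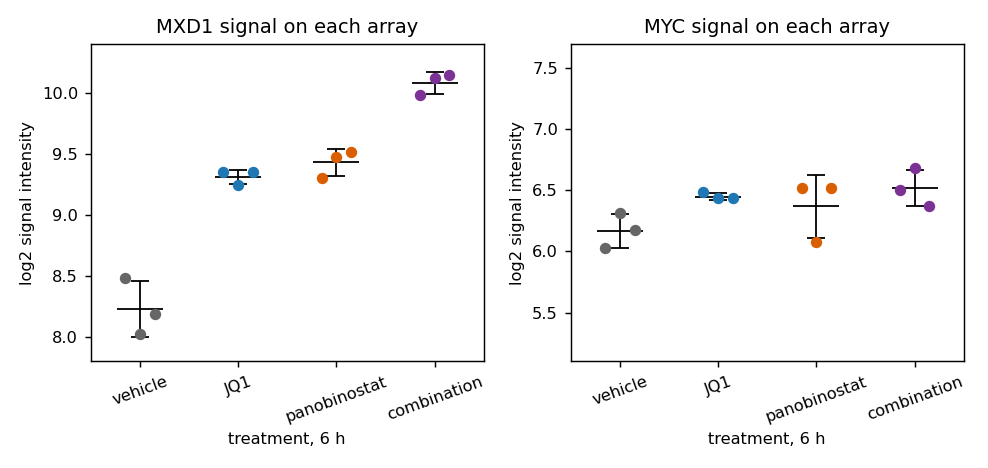
Log2 signal intensity of MXD1 (left) and MYC (right) on each of the 12 arrays by treatment, with the group mean and SD in black and axes of equal span. MXD1 stands at 8.03 to 8.48 in vehicle arrays and at 9.98 to 10.15 in combination arrays, whereas MYC stays between 6.03 and 6.68.

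Against vehicle, MXD1 was 2.12-fold higher with JQ1 (log2 change 1.08 ± 0.11, SE, limma adjusted p = 6.55e-05). With panobinostat it was 2.29-fold higher (1.20 ± 0.11, adjusted p = 1.33e-05). With both compounds it was 3.61-fold higher (1.85 ± 0.11, adjusted p = 1.77e-07), with a 95% confidence interval of 3.06-fold to 4.26-fold. The share of genes called higher at an adjusted p under 0.05 was 8.18% with JQ1 (17.6% in either direction), 14.5% with panobinostat (29.3%) and 18.2% with the combination (37.7%). MXD1 ranked at place 40 of 14884 genes by rise with JQ1, at 57 with panobinostat and at 29 with the combination, or 25 among 11916 protein-coding genes. These comparisons share the vehicle arrays. A separation of all treated from all vehicle arrays was seen in 33.5% of genes with JQ1, in 39.8% with panobinostat and in 46.1% with the combination. Vehicle lowest and the combination highest, with no overlap with either single compound, was found for MXD1 and for 3.39% of genes.

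Each compound added to the other raised MXD1 again. The combination exceeded JQ1 by 0.77 ± 0.11 (1.71-fold, adjusted p = 0.000337), where 11.7% of genes were called higher (25.6% called) and the arrays of 41.7% did not overlap. It exceeded panobinostat by 0.65 ± 0.11 (1.57-fold, adjusted p = 0.00217), where 6.13% were called higher (14.7% called) and the arrays of 30.9% did not overlap. In that comparison 41.8% of calls were higher, and 52.7% after each array was set to a common median. Being called higher with each compound and higher again with both was shared by 200 genes, 1.34% of those tested, and MXD1 was the eleventh of them by its rise with the combination. CDK9, the kinase of the elongation factor P-TEFb, was the other gene of the lists described here that met it (0.67 ± 0.06 with the combination), and it is named after its values were seen. The order of the MXD1 levels was therefore vehicle, JQ1, panobinostat and combination, of which JQ1 and panobinostat did not differ beyond their spread. Panobinostat minus JQ1 was 0.12 ± 0.11 (limma adjusted p = 0.503), with a 95% interval of -0.12 to 0.35, which leaves room for a difference of up to 1.28-fold. Of all genes, 23.3% were called there (11.6% higher), and the arrays of 39.3% did not overlap. The calls split into 1732 higher and 1729 lower, and into 1438 higher and 2248 lower with arrays set to a common median.

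The rise with both compounds was smaller than the sum of the single rises, but this difference did not pass the test. The single changes add to 2.28 on the log2 scale, a 4.85-fold rise, against the 1.85 measured. The interaction was -0.43 ± 0.15 (unadjusted p = 0.0174, adjusted p = 0.236), and 0.759% of genes were called in that comparison (0.309% higher). Its 95% interval, before adjustment, ran from -0.76 to -0.09.

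Averaged over both levels of the other compound, panobinostat raised MXD1 by 0.98 and JQ1 raised it by 0.87, each with 6 arrays against 6. A two-sided exact permutation test within levels of the other compound gave p = 0.005 for each, the smallest that its 400 labelings allow. The 6 arrays with panobinostat ran from 9.30 to 10.15 and the 6 without it from 8.03 to 9.35, so that these groups overlapped by the JQ1 arrays. The same held with JQ1, where arrays ran from 9.24 to 10.15 against 8.03 to 9.51.

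MYC changed little. Its vehicle arrays read 6.03, 6.32 and 6.17 (6.17 ± 0.14, SD, n = 3) and its JQ1 arrays 6.49, 6.44 and 6.44 (6.45 ± 0.03). The panobinostat arrays read 6.52, 6.07 and 6.52 (6.37 ± 0.26), the second lying among the vehicle arrays. The combination arrays read 6.50, 6.68 and 6.38 (6.52 ± 0.15). The JQ1 and combination arrays lay above all vehicle arrays, the latter by a narrow margin, and the panobinostat arrays overlapped them. Such a separation from vehicle, in either direction, was seen in 33.5% of genes with JQ1 and in 46.1% with the combination. All 12 arrays lay between 6.03 and 6.68, and the mean signal of the MYC cluster was at the 32.4th percentile of genes. That of the MXD1 cluster was at the 83.0th, which gives no order of RNA abundance between the genes.

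MYC was 1.27-fold higher with the combination than with vehicle (0.35 ± 0.13, SE, limma adjusted p = 0.0469), where 18.2% of genes were called higher. It stood at 0.28 ± 0.13 with JQ1 (adjusted p = 0.161) and 0.20 ± 0.13 with panobinostat (adjusted p = 0.286), and neither passed. The 95% confidence intervals, before adjustment, reach up to a 1.47-fold rise with JQ1 and a 1.39-fold rise with panobinostat. They reach down to 0.947 of vehicle with panobinostat and to a log2 change of 0.01 with JQ1. The JQ1 interval thus lies just above 0, before adjustment for the number of genes. After adjustment the JQ1 value did not pass. The combination's call ended without vehicle replicate 1 (0.276), vehicle replicate 3 (0.347), combination replicate 1 (0.356), combination replicate 2 (0.267) or any 1 JQ1 array (0.347 each), and panobinostat's value was called without panobinostat replicate 2 (0.344). Between treated groups MYC was not called, at 0.07 ± 0.13 for the combination minus JQ1 (adjusted p = 0.755), 0.15 ± 0.13 for the combination minus panobinostat (0.493) and -0.08 ± 0.13 for panobinostat minus JQ1 (0.69). In order of their means the groups were vehicle, panobinostat, JQ1 and combination; the arrays of vehicle lay below those of JQ1 and of the combination, with only the latter difference called, and the 3 treated groups overlapped one another.

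Averaged over panobinostat, JQ1 was associated with a MYC difference of 0.22 (exact permutation p = 0.06), and averaged over JQ1, panobinostat with 0.13 (exact permutation p = 0.19). The former gave an exact permutation p = 0.02 with arrays set to a common median (0.243) and an exact permutation p = 0.025 after quantile normalization (0.23). It also passed without panobinostat replicate 1 (0.253) or 3 (0.253), vehicle replicate 2 (0.252) or combination replicate 3 (0.252). Primary microRNA genes, 1072 mostly dim features, stood beside these values at a median of 0.07 with JQ1, 0.09 with panobinostat and 0.05 with the combination, and 5.78% of them were called higher with the combination. Their array medians were 5.14 to 5.28 with vehicle and 5.28 to 5.40 with the combination, and the share that changed at least as far upward as MYC was 16.9% with JQ1, 31.8% with panobinostat and 12.5% with the combination. The part of these shifts in the MYC values was not tested.

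**Figure D2:**
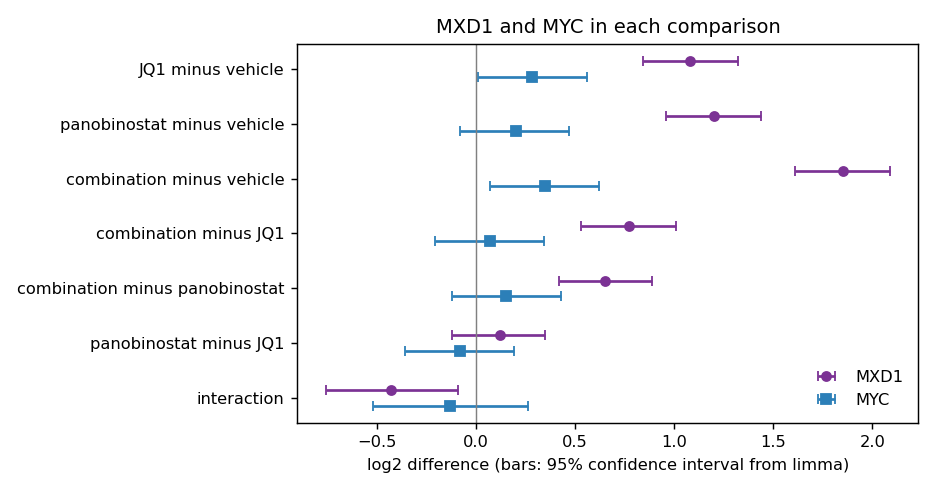
Log2 differences of MXD1 (circles) and MYC (squares) in the 6 comparisons between groups and in the interaction, with 95% confidence intervals from limma. The intervals, before adjustment, lie above 0 for MXD1 in 5 comparisons, with values from 0.65 to 1.85. They lie below 0 for its interaction (-0.76 to -0.09). MYC values range from -0.08 to 0.35 in the 6, with intervals above 0 for JQ1 (0.01 to 0.56) and the combination (0.07 to 0.62) against vehicle.

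The distance between the antagonist and MYC widened. Since levels of different clusters are not comparable, only the change of MXD1 minus MYC within an array is read, a measure added after the data were seen. It was 2.45, 1.71 and 2.02 in the vehicle arrays and 3.48, 3.44 and 3.77 in the combination arrays. JQ1 arrays stood at 2.87, 2.80 and 2.91 and panobinostat arrays at 2.79, 3.40 and 2.99. No treated array reached down to a vehicle array. Averaged over the other compound, panobinostat widened the difference by 0.85 and JQ1 by 0.65 (exact permutation p = 0.005 for each, the smallest possible). This test is not separate from that of MXD1, which alone gave 0.98 and 0.87 at the same exact permutation p. MYC moved upward by 0.13 and 0.22, which narrows the difference, so the widening came from the rise of MXD1. With 1 array left out the exact permutation p was at most 0.01 for panobinostat and 0.02 for JQ1.

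Among the other genes of the network, 9 were measured, and none matched the size of the MXD1 change. The changes of MXD1 exceeded 1 on the log2 scale in all 3 comparisons with vehicle, whereas those of the other measured members, MYC included, ran from -0.34 to 0.53. Counting MYC and MXD1, 2 of 11 rose and 1 fell with JQ1, 3 rose and 2 fell with panobinostat, and 5 rose and 0 fell with the combination, where 17.6%, 29.3% and 37.7% of all genes were called, the last count being 3 without any one of combination replicates 1 and 2, vehicle replicate 3 and JQ1 replicate 3. The count of rises with panobinostat was 5 without panobinostat replicate 2, and the other counts moved with the calls of MXD4, MLX, MNT and MGA given below. The median changes were 0.05, 0.15 and 0.13, against 0.01, 0.03 and 0.02 over all genes.

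MAX, the shared partner, rose with panobinostat (0.46 ± 0.10, limma adjusted p = 0.00446). Its rise in the combination arrays was 0.53 ± 0.10 (adjusted p = 0.00107), and it was at 0.02 ± 0.10 with JQ1 (adjusted p = 0.942). MXD4, a relative of MXD1, rose with the combination (0.43 ± 0.10, adjusted p = 0.00361). With JQ1 it was called at 0.34 ± 0.10, a call that ended without JQ1 replicate 1 (0.32) or 2 (0.307) or vehicle replicate 2 (0.306) or 3 (0.295), and with panobinostat it stood at 0.06 ± 0.10. The family members MXD3 (0.11 ± 0.06) and MXI1 (-0.06 ± 0.08) were not called with the combination. A second, somewhat dimmer MXI1 cluster was lower there (-0.42, adjusted p = 0.0286 over all clusters), so the 2 clusters of MXI1 differ in size and in call. Their signs were opposite with JQ1 (0.08 and -0.21) and with panobinostat (0.15 and -0.34), where neither was called. A second MXD3 cluster was at 0.16 (adjusted p = 0.402 over all clusters).

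MNT and MGA, other MAX partners that repress, were called lower with panobinostat, at -0.26 ± 0.08 and -0.34 ± 0.10, and were at -0.09 each with the combination. The MNT call ended without panobinostat replicate 1 (-0.186) or 3 (-0.263) or vehicle replicate 1 (-0.25), 2 (-0.275) or 3 (-0.244), and the MGA call without vehicle replicate 1 (-0.234) or panobinostat replicate 1 (-0.281). MLX, the MAX-like partner of the glucose sensors, was called lower with JQ1 (-0.21 ± 0.06, adjusted p = 0.0418), and that call ended when any 1 of 10 arrays was left out (-0.241 to -0.195 over all left-out arrays). Its partner MLXIP was higher with panobinostat (0.30 ± 0.08) and with the combination (0.23 ± 0.08). The former call ended without vehicle replicate 2 (0.25) or panobinostat replicate 3 (0.248), and the latter when any 1 of 7 arrays was left out (0.175 to 0.283 over all left-out arrays). MLXIPL was not called in any comparison with vehicle, at 0.13 ± 0.14 with the combination. In promoters of measured members other than MYC, the E-box CACGTG was present in those of MXD4, MNT and MLX.

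**Figure D3:**
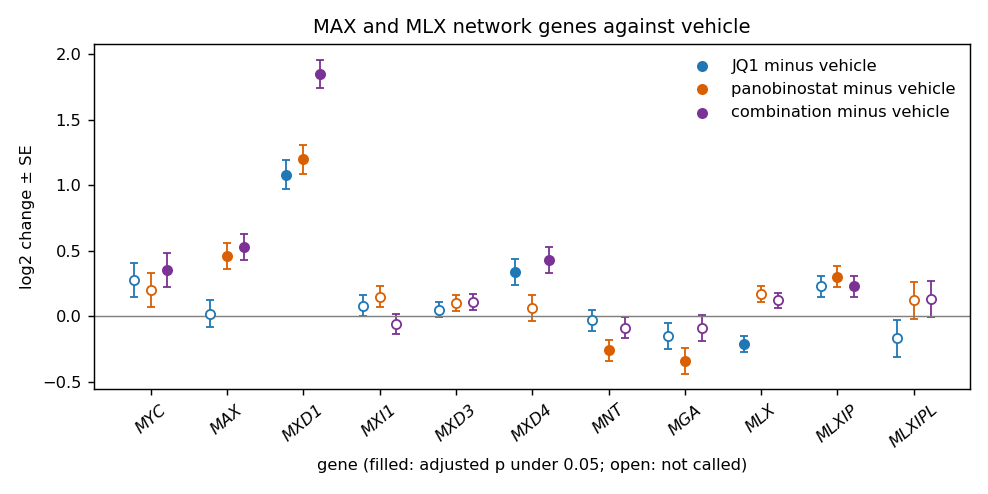
Log2 change ± SE (limma, n = 3 arrays per group) of the 11 measured MAX and MLX network genes against vehicle, with called genes as filled points. MXD1 reaches 1.08, 1.20 and 1.85 while the other genes lie between -0.34 and 0.53.

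MXD1 represses through the SIN3 corepressor. Of the list around it, 5 of 10 measured genes rose with panobinostat and 0 fell (median 0.27; 14.5% of all genes were called higher), the count of rises being 3 without vehicle replicate 2, and with the combination 5 rose and 1 fell (median 0.27; 18.2% of all genes were called higher), the fall not being called without vehicle replicate 1 or without either of combination replicates 1 and 2. With JQ1 limma called 0 of 10 (median 0.05), with 1 higher and 0 lower at an unadjusted p under 0.05, and called 1 higher without vehicle replicate 1 or panobinostat replicate 2. With both compounds SIN3A, the scaffold that MXD1 binds, rose 2.13-fold (1.09 ± 0.08, limma adjusted p = 6.1e-07). SAP30L, a SIN3-associated subunit, was at 0.75 ± 0.09, the deacetylase HDAC1 at 0.44 ± 0.07 and BRMS1, another subunit, at 0.37 ± 0.06, all called. RBBP4, a histone-binding subunit, was at -0.15 ± 0.06 and not called (adjusted p = 0.0591).

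Among coactivators and partners of MYC, with the combination 5 of 14 fell and 2 rose (median -0.12), with panobinostat 6 fell and 1 rose (median -0.11), and with JQ1 4 fell and 2 rose (median -0.01). Of all genes, 37.7%, 29.3% and 17.6% were called in these comparisons. The JQ1 count of falls was 2 without vehicle replicate 1 or either of JQ1 replicates 2 and 3. The combination's count of rises was 1 without vehicle replicate 3 or either of combination replicates 2 and 3. With both compounds the acetyltransferase genes CREBBP (-1.07 ± 0.07), KAT5 (-0.86 ± 0.16) and KAT2A (-0.68 ± 0.07) fell, as did BPTF, a nucleosome remodeller subunit (-0.81 ± 0.07). ACTL6A, a subunit of several chromatin complexes, was at 0.05 ± 0.07 (adjusted p = 0.678).

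Among 9 measured genes that control MYC protein turnover, 5 fell and 2 rose with the combination (median -0.27; 37.7% of all genes called), the rises numbering 1 without any one of replicates 2 and 3 of vehicle or of the combination. USP7, a deubiquitinase, fell by 1.01 ± 0.07 and FBXO32, an F-box protein, by 0.74 ± 0.10. The mitotic kinases PLK1 and AURKA, which are also known to stabilise MYC proteins, fell by 0.90 ± 0.10 and 0.73 ± 0.09. AXIN1, a scaffold for MYC phosphorylation, was at 0.08 ± 0.08 (adjusted p = 0.497). With panobinostat 3 fell and 1 rose (median -0.29; 29.3% of all genes called), and 5 fell with arrays set to a common median or without dim genes. With JQ1 1 fell and 0 rose (median -0.07; 17.6% of all genes called), the single fall being that of AURKA, which was not called without JQ1 replicate 1, JQ1 replicate 2 or vehicle replicate 2.

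Genes of RNA-binding proteins that act on let-7 or on MYC mRNA held large falls. LIN28B, which blocks let-7 maturation, fell by 2.22 ± 0.10 with the combination, and IGF2BP3, a relative of the MYC mRNA-binding IGF2BP1, fell by 1.72 ± 0.10. IGF2BP1 itself was at 0.07 ± 0.11 (adjusted p = 0.676), and IGF2BP2, a very dim cluster, rose by 0.33 ± 0.08. With the combination 2 of 5 measured genes thus fell and 1 rose, with panobinostat 2 fell and 0 rose, and with JQ1 1 fell and 1 rose (medians 0.07, 0.02 and 0.05), against 37.7%, 29.3% and 17.6% of all genes called. Without vehicle replicate 2, 1 rose with panobinostat. The JQ1 rise, of IGF2BP2, was not called without vehicle replicate 1, vehicle replicate 3, JQ1 replicate 1 or JQ1 replicate 2.

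Genes that MYC is known to induce were lower with panobinostat in 12 of 22 cases and higher in 0 (median -0.24), where 29.3% of all genes were called in either direction. After quantile normalization 3 of them rose with panobinostat, and with an intensity trend 2 did. With the combination 11 fell and 2 rose (median -0.16), where 37.7% of all genes were called. With JQ1 3 fell and 1 rose (median -0.04), where 17.6% were called, and the falls numbered 5 after quantile normalization or without dim genes and 6 with an intensity trend. The largest fall was that of TFAP4, a transcription factor of the same helix-loop-helix class (-1.62 ± 0.11 with the combination). The ribosome biogenesis factors MRTO4 (-0.68 ± 0.08) and RRS1 (-0.53 ± 0.09) and the cell cycle phosphatase CDC25A (-0.54 ± 0.10) fell too. Of other listed genes with nucleolar roles, BOP1 (0.27 ± 0.07) and NOLC1 (0.19 ± 0.06) were the 2 that rose with the combination. NCL (-0.07 ± 0.07), FBL (0.10 ± 0.06) and NOP58 (0.07 ± 0.08) were not called there. SRM, the spermidine synthase, was at -0.11 ± 0.06 (adjusted p = 0.202). These are also targets of MYCN, which was not analysed here. Rises with the combination numbered 1 when replicate 2 or 3 of either group was left out. The 1 rise with JQ1 was not called without any 1 of the JQ1 arrays or of vehicle replicates 2 and 3, and without panobinostat replicate 2 the rises numbered 2 with JQ1 and 1 with panobinostat.

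Of 7 measured genes that MYC or MYCN is known to repress, 4 rose and 2 fell with the combination (median 0.52), 3 rose and 1 fell with panobinostat (median 0.29), and 2 rose and 1 fell with JQ1 (median 0.17). Of all genes, 37.7%, 29.3% and 17.6% were called there, and with all clusters tested the rises with panobinostat numbered 1. TXNIP, an inhibitor of thioredoxin, was at 0.83 ± 0.12 with the combination, NDRG1, a differentiation-associated gene, at 0.80 ± 0.09 and DKK3, a secreted protein of the Dickkopf family, at 0.61 ± 0.10, all called. DKK1, a secreted WNT antagonist, went against the list's name and fell by 2.93 ± 0.14. NGFR, a neurotrophin receptor, was at 0.09 ± 0.11 (adjusted p = 0.603). Without JQ1 replicate 1 or vehicle replicate 2 the rises with JQ1 numbered 1. CDKN1A was not analysed here.

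**Figure D4:**
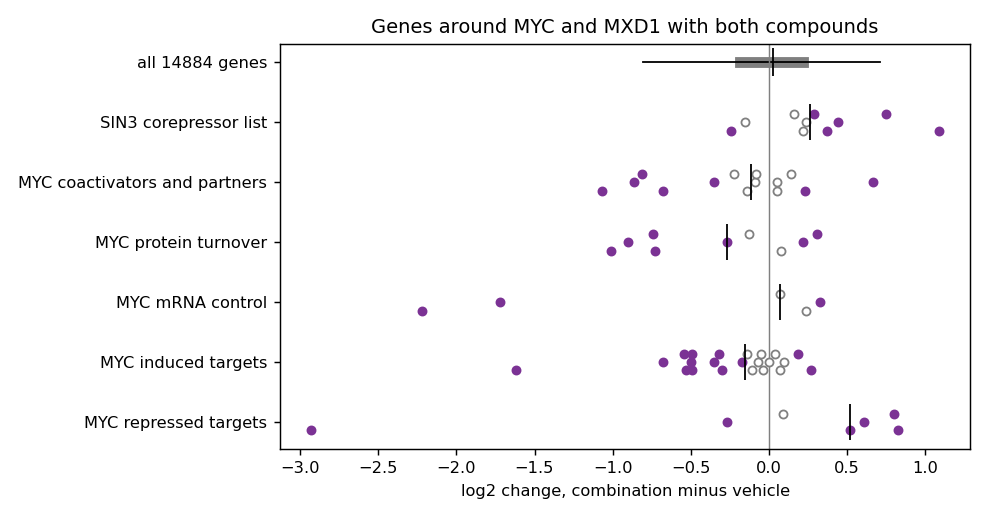
Log2 change with both compounds against vehicle for each measured gene of 6 lists around MYC and MXD1, with called genes filled, genes not called open and a tick at each list's median. The top bar gives all 14884 genes, with the line from the 5th to the 95th percentile (-0.80 to 0.71), the thick part from the 25th to the 75th (-0.19 to 0.22) and the median as a tick.

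Adrenergic markers moved with these groups as well. With the combination 10 of 10 were lower (median -0.92), and with panobinostat 8 were lower and 0 higher (median -0.44). With JQ1 3 were lower and 1 higher (median -0.11). Of all 14884 genes, 2901, 2202 and 1409 were called lower in these comparisons, and 37.7%, 29.3% and 17.6% were called in either direction. The part of the adrenergic markers in the changes of MXD1, MYC or the lists was not tested.

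Of the 3 nearest protein-coding genes on each side of MXD1 on chromosome 2, 4 were measured. With the combination GMCL1, a germ cell protein, rose by 0.72 ± 0.16 and PCBP1, an RNA-binding protein, fell by 0.61 ± 0.07. SNRNP27, a splicing factor and the nearest of them upstream, was at 0.22 ± 0.08, called but not when any 1 of 9 arrays was left out (0.162 to 0.272 over all left-out arrays) or for the mean of its clusters (0.095), and ANXA4, an annexin, was at -0.25 ± 0.16 (adjusted p = 0.272). With panobinostat PCBP1 fell by 0.64 ± 0.07, GMCL1 was called at 0.51 ± 0.16 and SNRNP27 at 0.29 ± 0.08. Those of GMCL1 and SNRNP27 were not called without vehicle replicate 2 (0.404 and 0.241) or panobinostat replicate 2 (0.386 and 0.237), nor that of GMCL1 without vehicle replicate 3 (0.452) or panobinostat replicate 3 (0.487). The mean of the SNRNP27 clusters was 0.074 there and not called. With JQ1 the 4 neighbours ran from -0.14 to 0.17, none of them called. Of all genes, 37.7% were called with the combination, 29.3% with panobinostat and 17.6% with JQ1. Around MYC, TRIB1, a pseudokinase, fell by 1.70 ± 0.09 with the combination. It was at -0.53 ± 0.09 with JQ1 and at -1.38 ± 0.09 with panobinostat, both called. The nearest genes measured on either side, POU5F1B (-0.03 ± 0.18, adjusted p = 0.932) and GSDMC (-0.04 ± 0.17, adjusted p = 0.898), were not called with the combination.

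The genes whose signal over the 12 arrays was most like that of MXD1, by Pearson correlation among 6949 protein-coding genes at or above the median signal, were PLXNA3, a semaphorin co-receptor (r = 0.994), and NEU1, a lysosomal sialidase (0.993). EIF5A2, a translation factor, WDR47 and CPD, a carboxypeptidase, followed at 0.992 each. Their changes with JQ1, panobinostat and the combination were 0.70, 0.81 and 1.19 for PLXNA3, and 0.88, 0.99 and 1.61 for NEU1, rising with the same steps as MXD1 but less far. Most opposed were GALNT14, a glycosyltransferase (r = -0.993), NFIC, a transcription factor (-0.988), and GFRA2, a co-receptor of the GDNF family (-0.985). NFIC was at -1.28, -1.35 and -2.16 in those comparisons. In all, 195 of these genes had r of at least 0.95 with MXD1 and 97 had r of -0.95 or below, against 0 and 0 for MYC. The arrays of a group share their treatment, so these values describe the 4 conditions more than 12 independent points.

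For MYC the most alike were DDX49, an RNA helicase, and LRRC45, a centrosomal protein (r = 0.854 each), SOX8, a transcription factor (0.852), HCFC1R1 (0.847) and EPN1, an endocytic adaptor (0.838). The most opposed were SRP9, a signal recognition particle subunit (-0.882), LYPLA1, a thioesterase (-0.879), and GATAD1, a zinc finger protein (-0.869). Their changes with the combination were small, from 0.10 for HCFC1R1 to 0.30 for DDX49 and from -0.30 for GATAD1 to -0.24 for LYPLA1. Those of LRRC45 (limma adjusted p = 0.41), SOX8 (0.0772) and HCFC1R1 (0.366) were not called. The r values are the extremes among 6949 genes over 12 arrays. The call of EPN1 (0.24) ended without vehicle replicate 3 (0.202) or either of combination replicates 1 (0.244) and 2 (0.203), and that of GATAD1 without combination replicate 2 (-0.23).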

How the data were processed

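RNA from 12 samples was hybridised as biotin-labelled cRNA to Affymetrix HuGene-2_0-st arrays, per the labels' protocols. The authors deposited 1 value per cluster and array, 53617 clusters, taken as log2 signal since values run from 1.391 to 14.097. The submitters' processing notes list MAS5 and affy with no role or version, and the sources used here give neither normalization nor build. Clusters to which the probe table gave no gene symbol or several were left out. The 16098 clusters with a single symbol all matched RefSeq (GRCh38.p14). Where a symbol had several clusters, the brightest stood for it (14884 genes). No filter on signal and no further normalization were applied. One limma 3.58.1 fit in R 4.3.3 (lmFit, eBayes, 1 coefficient per group, 8 residual and 3.457 prior degrees of freedom) gave changes, SE and Benjamini-Hochberg p-values over all genes, called under 0.05. An exact permutation of 3 against 3 arrays cannot go below 0.1, hence 6 against 6 in strata. The fit was tested on simulated data. Same-numbered arrays of different groups had residual correlations of -0.693 to 0.236, with 4 of 18 pairs over 0.1, so numbers were not taken as pairs. Members and lists were chosen with earlier results of these data known. Measured were 11 of 13 listed network genes, 10 of 19 around SIN3, 14 of 17 coactivators and 9 of 16 for protein turnover. So were 5 of 10 for mRNA control, 22 of 38 induced targets and 7 of 17 repressed targets. A planned reference of olfactory receptors had 0 measured protein-coding genes, and microRNA genes were used instead. Named were all network genes, up to 4 called and 1 uncalled gene per list, neighbours, and the genes most like or opposed to each member. BOP1, NOLC1, NCL, FBL and NOP58 were named after their values were seen. Alternatives were another scaling, a filter on dim genes, a replicate term, other features or arrays in the fit, and each array left out in turn.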

Additional observations from a re-analysis of the deposited data

How the results depend on the processing

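MXD1 kept its direction and its calls in all 7 comparisons under every alternative tried, between 1.748 and 1.976 for the combination against vehicle (adjusted p at most 4.61e-05) and between -0.552 and -0.324 for the interaction (adjusted p at least 0.0768). MYC with the combination was not called after quantile normalization (0.307), with a replicate block (0.347) or when all clusters were tested (0.347), and ranged from 0.267 to 0.42 with 1 array left out. With 1 array left out, MYC ranged from 0.122 to 0.344 for panobinostat against vehicle, -0.014 to 0.139 for the combination minus JQ1 and -0.159 to 0.063 for panobinostat minus JQ1. The average effect of JQ1 on MYC passed with centred arrays (0.243) or quantile normalization (0.23) and ranged from 0.142 to 0.253 with 1 array left out. The filter on dim genes removed MYC and gave no MYC value. The replicate block changed no other call of MXD1 or MYC. Where all clusters were tested, 6707 were called with panobinostat and 9587 with the combination. The combination differed from panobinostat in 1325 genes when only those groups were fitted, against 2184. Calls of the interaction numbered 113, and 282 with quantile normalization, 259 without dim genes, 48 with the replicate block, 324 with an intensity trend and robust prior, 12 over all clusters, and 28 to 86 with 1 array left out. The mean of its clusters turned MXI1 negative with JQ1 (-0.064) and panobinostat (-0.094). With 1 array left out, values not called turned sign for MAX with JQ1 (-0.038 to 0.108), MNT with JQ1 (-0.099 to 0.023), MLXIPL with panobinostat (-0.031 to 0.236), and, with the combination, MGA (-0.153 to 0.009), ACTL6A (-0.011 to 0.103), IGF2BP1 (-0.03 to 0.183), GSDMC (-0.125 to 0.09) and POU5F1B (-0.226 to 0.126). IGF2BP2 with the combination was not called with an intensity trend (0.326). Of 840 list counts recomputed, 717 stayed within 1.5 times. The causes of these losses were not tested, and the number of arrays limits what can be told apart.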
